A study of Mus musculus with 72 samples.

Results

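The 37 genes described here encode the enzymes, sensors and carriers of cholesterol synthesis and handling, together with enzymes that make and desaturate fatty acids. They were chosen by name, as a pathway, with earlier results of these data known. Gene symbols matched them to the deposited RNA-seq tables, which list 18472 genes in all. The table from RAW264.7 cells given IFNB1 listed all 37, the table from RAW264.7 cells given Dex listed 31, and the table from marrow-derived macrophages listed 30. In all, 28 were listed in every table. Fdps, Fdft1, Dhcr7 and Elovl6 were analysed only in the IFNB1 experiment. Hsd17b7, Scd2 and Fads2 were not analysed here in marrow-derived cells, and Tm7sf2 and Ch25h not in the Dex experiments on RAW264.7 cells.

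The study measured messenger RNA in mouse macrophages labelled as Setd1aDel/+ or Setd1bKO, after the genes Setd1a and Setd1b, which encode histone H3 lysine methyltransferases, and asked how glucocorticoid responses depend on them. It holds 72 libraries in 24 groups of 3, stated by the submitters to be biological replicates. Dex is dexamethasone, a synthetic glucocorticoid, LPS is bacterial lipopolysaccharide, which activates macrophages, and IFNB1 is interferon beta. Marrow-derived macrophages were grown for 7 days with medium conditioned by L929 cells, which supplies M-CSF and GM-CSF. They were either labelled Setd1bKO or were controls, whose titles say wild type and whose genotype label is Setd1bHet, so a heterozygous control cannot be told apart from a wild-type one. Each genotype received vehicle (ethanol and buffer) for 16 h, vehicle with LPS at 100 ng/ml over 6 h, or 1 uM Dex for 16 h with the same LPS. RAW264.7 is a transformed macrophage line from a male BALB/c mouse, and was used as wild-type cells (wt) or as cells labelled Setd1aDel/+. That label is a notation for a deletion in 1 of the alleles of Setd1a, and does not give its extent. A first RAW264.7 experiment followed the same 16 h scheme. A second gave vehicle or Dex for 6 h together with the 6 h of LPS, and added Dex alone for 6 h. Another RAW264.7 experiment compared LPS for 6 h with LPS and 10 ng/ml IFNB1 for 6 h. Whether the Setd1aDel/+ line is a single clone, what removes Setd1b, and the age of the mice are not given in the labels. The sex label of the marrow samples and the stated sex of the donor mice differ, as do the LPS units between the protocol and the sample labels.

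Cholesterol is built from acetyl-CoA through mevalonate, isoprenoid units, squalene and lanosterol. Its supply is set largely by SREBP2, the product of Srebf2, which the carrier SCAP brings from the endoplasmic reticulum to the Golgi when sterols are low and which INSIG proteins hold back when sterols are high. The liver X receptors, encoded by Nr1h3 (LXR alpha) and Nr1h2 (LXR beta), sense oxysterols and raise the exporters Abca1 and Abcg1. In macrophages, inflammatory signals and sterol metabolism are tied together, for example through 25-hydroxycholesterol, an antiviral oxysterol made by Ch25h.

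Promoter sequence was available from RefSeq (GRCm38.p6) for 29 of the 37 genes, and was searched over the 250 bases before the start site because the enzymes of the pathway are known to share regulators. There was no entry for Fdps, Fdft1, Sqle, Stard4, Abcg1, Npc1, Scd2 or Fads1. In all, 12 motifs were searched on both strands, some of them overlapping. The sterol regulatory element, written as TCACNCCAC, was found in Hmgcs1 alone among the 15 enzymes of the sterol pathway that had an entry, in none of the 14 other members, in 1.05% of the 32851 promoters of the table and in a promoter of 1.22% of its 27025 genes. The short CCAAT box was found in 14 of the 15 enzymes (93.3%) and in 6 of the 14 other members (42.9%), against 37.5% of all genes and 33.8% of all promoters. The GC box GGGCGG was also found in 14 of the 15 enzymes and in 7 of the other 14, against 35.4% of all genes and 32.7% of all promoters. The E-box CACGTG was found in 3 of the 15 and 3 of the 14, against 6.86% of all genes and 6.02% of all promoters. TCACNNCAC, a looser form of the sterol element that also takes in its exact form, was found in 4 of the 15 (Hmgcs1, Msmo1, Hsd17b7 and Dhcr7), against 3.63% of all genes and 3.11% of all promoters. TCACCCCAC and TCACNCCNC, 2 further forms, were found in Hmgcs1 alone among the members, against 0.496% and 4.18% of all promoters. TCANNTGA was found in Ch25h alone, against 7.09% of all promoters. The sterol element with its flanking A, a strict and a looser form of the DR4 repeat that liver X receptors bind, and the palindromic glucocorticoid response element were found in no member, against 0.0731%, 0.0152%, 0.0639% and 0.00913% of all promoters. CCAAT and the sterol element were singled out for printing after the matches had been seen. A match is a stretch of letters and does not show that a factor binds there. The 27025 genes were not limited to those expressed in these cells, and shares among expressed genes were not computed.
The sequences below are the last 100 bases before the start site, or 180 in Hmgcs1, where the sterol element lies farther out. They belong to the 6 enzymes with such a match inside that shorter window and no annotated exon overlapping it. The CCAAT box of Pmvk lies outside its window. They are printed 5′ to 3′ on the gene's strand and end at the base before the RefSeq start site, with capitals marking CCAAT, its reverse complement ATTGG, and the sterol element TCACCCCAC.
Hmgcs1, chr13:119690171-119690350, plus strand: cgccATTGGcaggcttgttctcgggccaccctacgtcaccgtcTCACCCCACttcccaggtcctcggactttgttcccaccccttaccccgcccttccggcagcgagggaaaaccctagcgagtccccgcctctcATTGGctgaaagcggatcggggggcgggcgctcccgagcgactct
Mvk, chr5:114444169-114444268, plus strand: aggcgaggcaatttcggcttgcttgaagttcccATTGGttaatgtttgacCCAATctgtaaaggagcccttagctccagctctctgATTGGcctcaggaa
Mvd, chr8:122443423-122443522, minus strand: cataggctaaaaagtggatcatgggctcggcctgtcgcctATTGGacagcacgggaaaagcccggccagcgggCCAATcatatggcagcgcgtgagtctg
Nsdhl, chrX:72918421-72918520, plus strand: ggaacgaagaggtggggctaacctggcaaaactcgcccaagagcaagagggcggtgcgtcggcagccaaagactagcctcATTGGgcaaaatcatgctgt
Ebp, chrX:8193513-8193612, minus strand: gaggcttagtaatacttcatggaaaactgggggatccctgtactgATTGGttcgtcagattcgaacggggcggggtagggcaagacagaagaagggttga
Sc5d, chr9:42264301-42264400, minus strand: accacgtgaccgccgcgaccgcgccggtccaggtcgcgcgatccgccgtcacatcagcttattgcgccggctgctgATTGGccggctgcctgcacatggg
In Hmgcs1, which encodes the synthase that makes HMG-CoA, the sterol element began 137 bases and 2 CCAAT boxes began 176 and 45 bases before the start site. Within their 100 printed bases, Mvk (mevalonate kinase) carried 3 CCAAT boxes and Mvd (mevalonate diphosphate decarboxylase) 2, and Nsdhl, Ebp and Sc5d, which act late in sterol synthesis, carried 1 each.

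All values are TPM, the share of a transcript among all transcripts corrected for its length, so levels may be compared between genes. Changes are differences in log2(TPM + 1), given with their standard error from a limma fit, and a change was called where its p, adjusted by Benjamini-Hochberg over every gene tested, was under 0.05. Setd1a RNA was called lower in the Setd1aDel/+ libraries of the 16 h and IFNB1 experiments, with a log2 difference of -0.63 under vehicle at 16 h. In the 6 h experiment the differences were -0.50, -0.46, -0.38 and -0.62 with vehicle, LPS, Dex and LPS, and Dex, and none was called (limma). Setd1b RNA was not lower in the libraries labelled Setd1bKO. It was 3.8, 5.13 and 4.7 TPM in control and 10.3, 9.65 and 10.2 TPM in labelled knockout cells under vehicle, so these libraries are named by their label throughout and directions drawn from it rest on the label. Summed over 6 macrophage markers, the level was 37670 to 38640 TPM in control and 24680 to 25450 TPM in labelled Setd1bKO libraries under vehicle. In the 16 h experiment the same sum was 2416 to 2831 TPM in wt and 22520 to 23610 TPM in Setd1aDel/+ libraries under vehicle. In the 6 h experiment it was 8391 to 8709 and 10610 to 11460 TPM. The wt libraries of the 2 experiments therefore differed among themselves in this sum, and the part of these differences in the results below was not tested. Marker genes of B cells, T cells, fibroblasts and erythroid cells were at or near 0 in the IFNB1 table and were not analysed here in the others. S100a8, the 1 gene of the neutrophil list that the Dex tables hold, is also made by activated macrophages. Under Dex and LPS it was 20.0 to 22.1 TPM in wt and 317 to 384 TPM in Setd1aDel/+ libraries at 16 h, and 187 to 206 and 130.2 to 139 TPM at 6 h, and in marrow 273 to 303 TPM in control and 449.5 to 521 TPM in labelled Setd1bKO libraries. In bulk RNA, fewer cells of a type and less RNA per cell cannot be told apart.

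LPS lowered the desaturases and a part of the sterol enzymes, and raised the exporter Abca1. In control marrow-derived macrophages, 19 of 30 members fell and 5 rose, where 85.3% of all genes changed, 20.6% higher and 64.7% lower. In labelled Setd1bKO cells 19 fell and 8 rose, against 83.1% changed, 24.9% higher and 58.2% lower, or 12 lower and 11 higher after scaling. In wt RAW264.7 cells of the 16 h experiment, 16 of 31 fell and 9 rose, against 83.5% of all genes changed, 17.4% higher and 66.1% lower. In Setd1aDel/+ cells 17 fell and 9 rose, against 84.8% changed, 18.4% higher and 66.4% lower, or 9 lower and 17 higher after scaling. In wt cells of the 6 h experiment, 14 of 31 fell and 7 rose, against 71.8% changed, 19.5% higher and 52.3% lower. In Setd1aDel/+ cells 13 fell and 9 rose, against 69.6% changed, 20.4% higher and 49.2% lower, or 8 lower and 13 higher after scaling. The median of all genes itself moved by -0.489, -0.377 and -0.24 in these comparisons. With libraries scaled by the median of gene ratios, the split of members in control or wt cells became 11 higher and 13 lower in marrow, 16 higher and 11 lower at 16 h, and 10 higher and 11 lower at 6 h. Of all genes, scaling gave 3564 higher and 3556 lower of 9159 in control marrow cells. It gave 3478 and 3423 of 8964 in wt cells at 16 h, and 3072 and 3038 of 8981 at 6 h. In labelled Setd1bKO cells it gave 3586 and 3623, and in Setd1aDel/+ cells 3638 and 3563 at 16 h and 2967 and 2993 at 6 h. Most genes changed, so these counts were not read as a result about the members. Single genes carry the description below.

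In the control or wt cells of all 3 experiments, 9 of the 28 members tested in each fell, against 41.8% of all genes. They were Acat2 (cytosolic acetyl-CoA acetyltransferase), Mvk, Pmvk, Mvd, Sqle (squalene epoxidase), Ebp (sterol isomerase), Srebf1, Fasn (fatty acid synthase) and Fads1. The call was lost for Sqle in marrow without any of 3 single libraries (-0.32 to -0.31) and for Fasn at 6 h without either of 2 (-0.20). Acat2 was 4.84, 4.55 and 4.59 TPM under vehicle and 2.09, 1.82 and 1.88 TPM under LPS in control marrow cells. Every vehicle library was above every LPS library, with a log2 change of -0.95 ± 0.099 (adjusted p = 1.92e-07). After scaling, Sqle changed by 0.10, 0.09 and 0.01 in marrow, at 16 h and at 6 h. Srebf1 changed by 0.03 in marrow and Fasn by 0.15 at 16 h. The signs thus turned, but of these values only that of Fasn was called after scaling (limma adjusted p = 0.00188). Fasn at 6 h became -0.01.

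Some of the sterol genes went the other way. Idi1, the isoprenoid isomerase, was 6.85, 7.68 and 8.59 TPM under vehicle and 11.6, 12.9 and 11.1 TPM under LPS in control marrow cells (0.57 ± 0.19, adjusted p = 0.0112). It also rose in wt RAW264.7 cells at 16 h (0.32), whereas at 6 h the change was -0.15 and was not called. Insig1, the sterol-regulated brake on SREBP, was 16.6, 17.7 and 16.5 TPM under vehicle and 30.5, 28.9 and 29.3 TPM under LPS in wt RAW264.7 cells of the 6 h experiment. The groups did not overlap, and Insig1 rose by 0.77 ± 0.11 there and by 0.43 ± 0.083 at 16 h (adjusted p = 2.53e-06 and 0.000198).

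The desaturases Fads1, Fads2 and Scd2 fell with LPS. Fads1, which makes polyunsaturated fatty acids as the delta-5 desaturase, was 27.1, 27.8 and 28.4 TPM under vehicle and 2.61, 3.25 and 3.62 TPM under LPS in control marrow cells. The groups lay far apart, with a log2 change of -2.80 ± 0.11 (adjusted p = 5.92e-13). In wt RAW264.7 cells Fads1 fell by 1.27 at 16 h and 1.47 at 6 h on the log2 scale. Fads2, the delta-6 desaturase, was 144, 162 and 157 TPM under vehicle and 63.4, 60.4 and 62.7 TPM under LPS at 16 h (-1.30 ± 0.046, adjusted p = 3.75e-13), with no overlap. Scd2, a stearoyl-CoA desaturase, was 163, 184 and 187 TPM under vehicle and 45.5, 47.6 and 49.2 TPM under LPS in wt cells of the 16 h experiment (-1.88 ± 0.075). In the 6 h experiment it was 34.9, 32.5 and 31.8 and 20.3, 20.2 and 21.3 TPM (-0.65 ± 0.1). The wt vehicle libraries of the 16 h experiment stood well above those of the 6 h experiment for this gene.

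Among the carriers, the 2 exporters moved in opposite directions in control marrow cells and in wt cells at 16 h. Abca1, which loads cholesterol onto apolipoprotein A-I, was 12.3, 14.3 and 11.7 TPM under vehicle and 19, 20.9 and 20.5 TPM under LPS in control marrow cells (0.62 ± 0.14, adjusted p = 0.000518), with no overlap. In wt RAW264.7 cells it was much scarcer, at 0.11, 0.0803 and 0.0538 TPM under vehicle and 1.3, 1.31 and 1.2 TPM under LPS at 16 h (1.07 ± 0.051), and it rose in the 6 h experiment as well (1.56 ± 0.066). At these levels the added 1 TPM understates the change. Abcg1, which exports sterol to HDL, was 102, 98.8 and 100.2 TPM under vehicle and 21.6, 21.1 and 23.1 TPM under LPS in control marrow cells (-2.15 ± 0.075, adjusted p = 1.86e-13). It fell in wt RAW264.7 cells at 16 h (-1.72 ± 0.065), and at 6 h the change was -0.17 and was not called.

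Soat1 and Npc1 fell in control marrow-derived cells. In wt RAW264.7 cells Soat1 and Npc2 rose, and Npc1 fell at 16 h. Soat1, which esterifies cholesterol for storage, was 232, 245 and 239.5 TPM under vehicle and 39, 42.4 and 40.5 TPM under LPS in control marrow cells (-2.53 ± 0.064, adjusted p = 3.12e-15). In wt RAW264.7 cells of the 16 h experiment it was 81.3, 82.1 and 79.5 and 115, 113 and 116 TPM, a rise of 0.50 ± 0.032. Both pairs of groups lay apart, in opposite directions, and the difference between the 2 kinds of cell was not tested. Npc1, the lysosomal sterol exporter in the membrane, was 56.7, 61.9 and 60.6 TPM under vehicle and 19.8, 19.6 and 19.9 TPM under LPS in control marrow cells (-1.55 ± 0.072). It was also called lower with LPS at 16 h in wt (-0.57) and Setd1aDel/+ (-0.86) RAW264.7 cells. Npc2, its soluble partner, was 244, 234 and 230.5 TPM under vehicle and 700.4, 693 and 704 TPM under LPS in wt RAW264.7 cells at 6 h (1.56 ± 0.035, adjusted p = 1.24e-18). In marrow its change was -0.16, which turned to 0.38 after scaling. Ch25h was at 0.0452, 0.313 and 0.191 TPM under vehicle and 19.1, 19.9 and 22.7 TPM under LPS in control marrow cells (4.19 ± 0.12, adjusted p = 1.76e-14). It was below 1 TPM in every library of the IFNB1 experiment on RAW264.7 cells, all of which had received LPS.

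**Figure D1:**
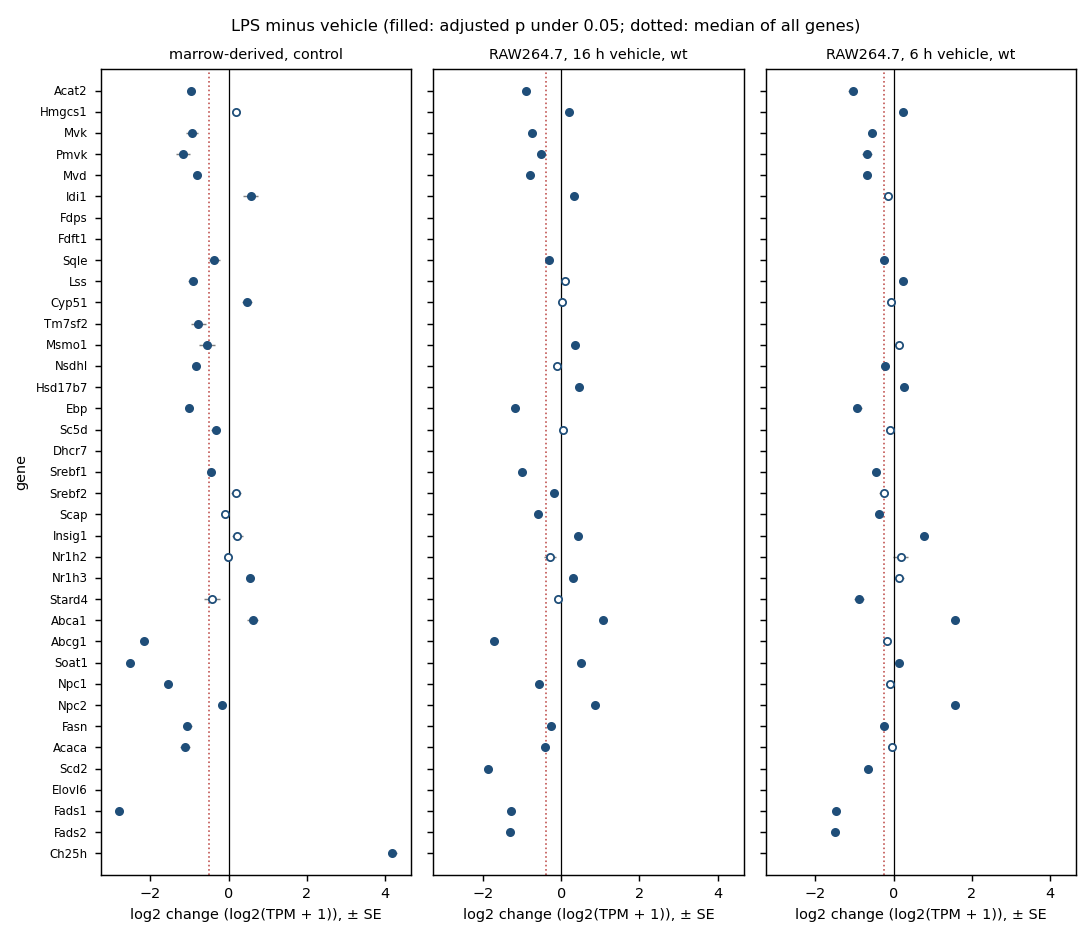
Log2 change with LPS against vehicle for each member (horizontal axis, log2(TPM + 1), bars are standard errors) in control or wt cells of 3 experiments with 3 libraries a group; filled points passed an adjusted p of 0.05 and the dotted line is the median of all genes. Fads1 lies left of that line in each panel, and Abca1 lies right of 0 in each panel.

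Dex added to LPS lowered most sterol enzymes in RAW264.7 cells after 16 h and few after 6 h. At 16 h, 20 of 31 members fell and 5 rose in wt cells, where 47.6% of all genes changed and 12.3% fell. In Setd1aDel/+ cells 20 fell and 2 rose, against 44.7% changed and 14.9% lower. Of the mevalonate steps 5 of 6, and of the squalene and sterol steps 7 of 8, fell in each genotype. At 6 h, 8 members fell and 4 rose in wt cells, against 25.3% of all genes changed and 10.6% lower. In Setd1aDel/+ cells at 6 h, 3 fell and 10 rose, against 32.9% changed and 22.1% higher. The difference between the 16 h and 6 h responses was tested in a joint fit. It was called lower for 10 and higher for 2 of 31 members in wt cells (13.5% of all genes called), and lower for 20 of 31 in Setd1aDel/+ cells (19.2%). Of these 20, Abca1 (-0.24) turned to 0.74 with a pseudocount of 0.1, and its call was lost without any of 6 single libraries. Length of treatment and experiment cannot be told apart, because each length was used in 1 experiment.

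Cyp51, the lanosterol demethylase, was 29.8, 27.8 and 28.3 TPM with LPS and 18.5, 20.4 and 20.04 TPM with Dex and LPS in wt cells at 16 h (-0.52 ± 0.054, adjusted p = 1.33e-06). In Setd1aDel/+ cells it was 18.7, 19.4 and 18.4 and 10.1, 10.2 and 10.5 TPM (-0.81 ± 0.054). All Dex libraries lay below all LPS libraries in both genotypes, and the fall was larger in Setd1aDel/+ cells (difference -0.29, adjusted p = 0.0246). That difference was not called when any of 7 libraries was left out. Cyp51 also fell in wt cells at 6 h (-0.37) and in control marrow cells (-0.41), where the groups overlapped and the call was lost without control Dex and LPS replicate 1 or 2 or control LPS replicate 2 (-0.38, -0.33 and -0.34). Together with Abcg1 and Npc2 it made up the 3 of 28 members lowered by Dex under LPS in the control or wt cells of all 3 Dex experiments, against 4.23% of all genes.

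Msmo1, the sterol C4-methyl oxidase, moved in opposite directions at the 2 lengths in Setd1aDel/+ cells. In Setd1aDel/+ cells at 16 h it was 99.8, 106 and 127 TPM with LPS and 57.5, 56.4 and 61.2 TPM with Dex and LPS (-0.91 ± 0.084, adjusted p = 4.4e-07). In the same cells at 6 h it was 63.3, 73.2 and 80.02 and 83.5, 98.9 and 99.3 TPM (0.38 ± 0.11, adjusted p = 0.0131). The groups lay apart at both lengths, lower with Dex at 16 h and higher at 6 h, and the 2 responses differed by -1.29 (adjusted p = 6.84e-08). The rise at 6 h was not called without Setd1aDel/+ Dex and LPS replicate 2 or 3 or LPS replicate 1 (0.34, 0.34 and 0.29). In wt cells Msmo1 fell at 16 h (-0.39) and at 6 h (-0.40), the latter not without Dex and LPS replicate 2 or LPS replicate 3 (-0.33 and -0.26), nor in a fit of these 2 groups only.

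Scd2 was also higher with Dex at 6 h in Setd1aDel/+ cells, at 19.4, 20.2 and 21.3 TPM with LPS and 38, 45 and 50.2 TPM with Dex and LPS at 6 h (1.08 ± 0.1, adjusted p = 5.78e-08). In wt cells it was 20.3, 20.2 and 21.3 and 25.4, 23.2 and 27.3 TPM (0.28 ± 0.1, adjusted p = 0.0469), a call lost after scaling and when any of 16 libraries was left out. The rise was larger in Setd1aDel/+ cells by 0.80 (adjusted p = 0.0029). At 16 h Scd2 changed by -0.23 in wt and -0.29 in Setd1aDel/+ cells. The wt fall overlapped between groups and was not called in a fit of these 2 groups only or without any of 4 single libraries (-0.23 to -0.16). Acat2, Mvd, Sqle, Lss and Hsd17b7 were likewise called lower at 16 h and higher at 6 h in Setd1aDel/+ cells, with differences of -0.89, -0.65, -0.62, -0.64 and -0.57. The rise of Lss at 6 h was not called without any of 4 single libraries (0.22 to 0.24), nor the fall of Mvd at 16 h without any of 3 (-0.17 to -0.12).

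The delta-5 and delta-6 desaturases rose with Dex in wt cells, and with Dex under LPS at 6 h in both genotypes. Fads2 was 155, 152 and 160.4 TPM under vehicle and 263, 283 and 266 TPM with Dex alone in wt cells at 6 h (0.79 ± 0.049, adjusted p = 1.78e-10). With LPS it was 55.1, 56.2 and 52.1 TPM without Dex and 110.2, 107 and 101 TPM with it (0.95 ± 0.049). Each Dex group lay above its own control group. Fads1 rose in the same comparisons by 0.35 and 0.67. In Setd1aDel/+ cells under LPS at 6 h, Fads2 rose by 0.98 and Fads1 by 0.75. At 16 h under LPS, Fads2 rose by 0.57 in wt cells, whereas in Setd1aDel/+ cells the change was 0.07 and was not called (difference -0.50, adjusted p = 0.000118). Fads1 rose there in both genotypes, by 0.53 in wt and 0.28 in Setd1aDel/+ cells. The Dex response under LPS differed between genotypes for 7 of 31 members at 16 h, all more negative in Setd1aDel/+ cells (10.6% of all genes, 2.88% higher and 7.68% lower), and for 6 of 31 at 6 h, of which 5 were more positive (5.29% of all genes, 3.25% higher and 2.04% lower).

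Without LPS, Dex raised 5 and lowered 8 of 31 members in wt cells (36.8% of all genes, 12% higher and 24.8% lower) and raised 8 and lowered 3 in Setd1aDel/+ cells (30.2% of all genes, 12% higher and 18.3% lower). After scaling, the wt split was 6 higher and 5 lower, beside 1423 higher and 1759 lower of all 8981 genes. The clearest rise beside Fads2 was in Soat1, at 74.1, 76.1 and 70.6 TPM under vehicle and 118, 112 and 116 TPM with Dex in wt cells (0.64 ± 0.037, adjusted p = 7.5e-11). It rose in Setd1aDel/+ cells as well (0.73 ± 0.037). The response to Dex alone was not called as different between genotypes for any of the 31 members, against 0.29% of all genes (limma). At an unadjusted p under 0.05 (limma) it differed for 1 of them, against 10.5% of all genes.

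The sterol exporters fell in RAW264.7 cells when Dex was added to LPS. In wt RAW264.7 cells at 6 h, Abca1 was 2.43, 2.63 and 2.89 TPM with LPS and 0.335, 0.333 and 0.382 TPM with Dex and LPS (-1.43 ± 0.066, adjusted p = 3.07e-12), close to the vehicle level of 0.232, 0.225 and 0.246 TPM. Abcg1 was 14.6, 15.1 and 13.9 and 6.84, 8.7 and 8.12 TPM (-0.81 ± 0.083). Npc2 was 700.4, 693 and 704 and 529, 530.4 and 527 TPM (-0.40 ± 0.035). The Dex libraries lay below the LPS libraries for each of these 3 genes. In control marrow cells Abcg1 fell from 21.6, 21.1 and 23.1 to 10.0, 9.23 and 9.4 TPM (-1.12 ± 0.075, adjusted p = 6.18e-09), whereas the change in Abca1 was -0.16 and was not called before scaling.

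In marrow-derived cells Dex under LPS lowered Ch25h and Abcg1. It raised 7 and lowered 4 of 30 in control cells (59.9% of all genes, 44.8% higher and 15.2% lower) and raised 7 and lowered 6 in labelled Setd1bKO cells (52.7% of all genes, 39.2% higher and 13.5% lower). After scaling these splits were 4 higher and 6 lower, and 2 higher and 11 lower. Of all 9159 genes, 1883 were then higher and 2454 lower in control cells, and 1403 and 2177 in labelled Setd1bKO cells. Fitting only the 2 groups compared left 7 calls in labelled Setd1bKO cells. Ch25h fell furthest, from 19.1, 19.9 and 22.7 TPM with LPS to 0.672, 0.818 and 0.565 TPM with Dex and LPS in control cells (-3.68 ± 0.12, adjusted p = 1.89e-12). In labelled Setd1bKO cells it was 7.88, 8.11 and 6.76 and 1.12, 1.68 and 2.04 TPM (-1.73 ± 0.12). The fall was smaller there, by a difference of 1.95 ± 0.17 (adjusted p = 5.83e-06), 1 of 2 members with a called difference (6.21% of all genes, 2.69% higher and 3.53% lower). The other was Npc2, whose call was lost after scaling and without any of 6 single libraries.

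**Figure D2:**
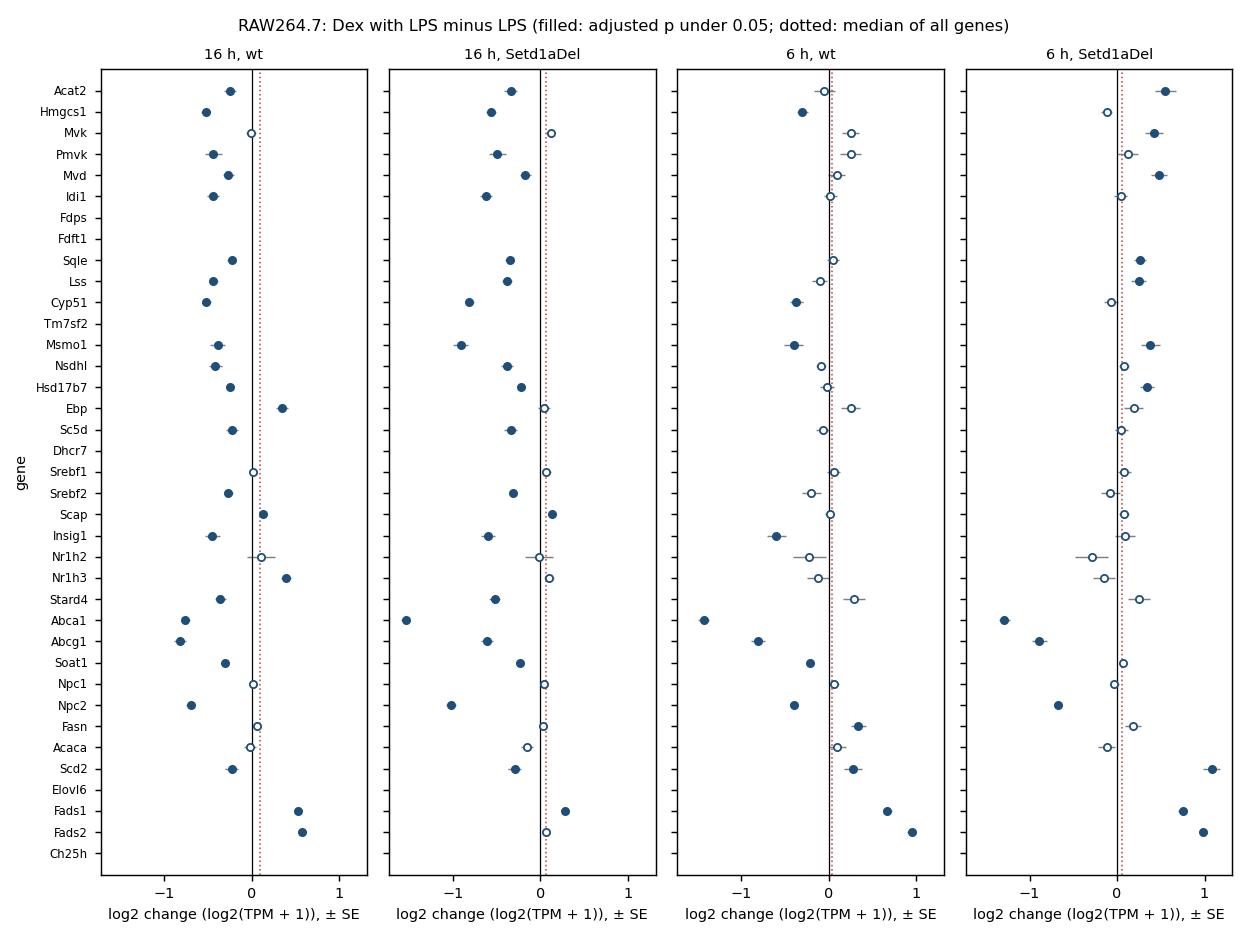
Log2 change with Dex and LPS against LPS alone for each member in RAW264.7 cells (horizontal axis, log2(TPM + 1), bars are standard errors, 3 libraries a group); filled points passed an adjusted p of 0.05. Most sterol enzymes lie left of 0 in both 16 h panels, and Msmo1 and Scd2 lie right of 0 in the panel for Setd1aDel/+ cells at 6 h.

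Sterol and fatty acid enzymes were lower in Setd1aDel/+ than in wt cells in the 16 h experiment, and in the 6 h experiment part of them were lower under vehicle. Under vehicle at 16 h, 25 of 31 members were lower and 3 higher, where 48.2% of all genes differed and 32.9% were lower. Under LPS 25 were lower and 2 higher (59.9% of all genes, 42.4% lower), and under Dex and LPS 26 were lower and 1 higher (64.6%, 47.6% lower). In all 3 conditions 22 members were lower, against 21.9% of all genes. Under vehicle all 6 mevalonate steps, all 8 squalene and sterol steps and all 5 fatty acid genes tested were lower, as were 4 of the 6 sensors and transcription factors. At 6 h, 13 were lower and 4 higher under vehicle (22.2% of all genes, 15.6% lower). Under LPS 6 were lower and 1 higher (21.5%, 12.3% lower), with 6 and 2 after scaling, a share near that of all genes. Scaling gave 957 lower and 1099 higher of all 8981 genes there. Under Dex and LPS 6 were lower and 7 higher (26.2% of all genes, 13.1% higher and 13.1% lower), and under Dex alone 8 were lower and 4 higher (13.6% of all genes, 6.2% higher and 7.37% lower). Of the enzymes, 2 mevalonate steps and 3 squalene and sterol steps were higher and 1 of the latter lower under Dex and LPS at 6 h. The Dex and LPS count fell from 13 to 8 without 1 library, Setd1aDel/+ replicate 2, and to 6 when only these 2 groups were fitted. The Dex count fell from 12 to 7 in the fit of 2 groups.

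The 13 members that were lower under vehicle at 6 h were all lower at 16 h too. Of all genes lower under vehicle at 6 h, 55% were lower at 16 h. In turn, the 13 made up 52.0% of the 25 members lower at 16 h. Of all genes, 769 of the 2953 lower at 16 h were lower at 6 h. The 13 members were Hmgcs1, Pmvk, Mvd, Idi1, Sqle, Lss, Cyp51, Nsdhl, Hsd17b7, Srebf2, Insig1, Fads1 and Fads2. The 6 h call was lost for Insig1 without any of 5 single libraries (-0.34 to -0.29), for Lss without wt vehicle replicate 1 (-0.20) and for Mvd without Setd1aDel/+ vehicle replicate 1 (-0.22). Nsdhl, Fads1 and Fads2 were lower in all 4 conditions at 6 h, against 2.19% of all genes, although for Nsdhl the call with Dex and LPS was lost without any of 5 libraries (-0.18 to -0.15). The difference in genotype effect between the 2 experiments was tested in comparisons added after the data had been seen. It was called lower at 16 h for 14 of 31 members and higher for 1 under vehicle (23.2% of all genes called). Under LPS the split was 20 lower and 1 higher (41.3%), and under Dex and LPS 23 lower and 1 higher (46.5%). After scaling, the LPS split was 16 lower and 1 higher, beside 1845 lower and 1642 higher of all 8981 genes. Experiment and length of vehicle treatment cannot be told apart here either. The macrophage marker sums given above differed between genotypes by far more at 16 h than at 6 h. Under LPS they were 2736 to 3093 TPM in wt and 9218 to 11050 TPM in Setd1aDel/+ cells at 16 h, and 6097 to 6178 and 5432 to 5838 TPM at 6 h. The single markers did not all follow the sum. Of the 6, 5 were called higher and 0 lower in Setd1aDel/+ cells under vehicle at 16 h, and 3 higher and 2 lower under LPS. At 6 h the splits were 4 and 0, and 1 and 2. The part of the markers in these results was not tested.

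Lss, which closes squalene epoxide to lanosterol, was 19.1, 20.7 and 21.3 TPM in wt and 10.3, 10.7 and 9.84 TPM in Setd1aDel/+ cells under vehicle at 16 h (-0.92 ± 0.053, adjusted p = 1.67e-09). Idi1 was 53.9, 55.5 and 51.5 and 33.7, 32.1 and 28.5 TPM (-0.76 ± 0.07). Both genes had no overlap between genotypes. In the 6 h experiment Idi1 was 40.6, 40.7 and 45 and 29.5, 33.1 and 32.5 TPM under vehicle (-0.40 ± 0.078, adjusted p = 0.00117), again apart, while under LPS the difference was 0.16 and was not called. Srebf2, which encodes the main activator of these enzymes, was 31.3, 35.4 and 34.9 TPM in wt and 23.4, 23.6 and 23.4 TPM in Setd1aDel/+ cells at 16 h (-0.51 ± 0.049). Insig1, itself sterol-regulated, was 26.9, 35.2 and 33.1 and 18.1, 18.2 and 15.6 TPM (-0.84 ± 0.083). Every wt library was above every Setd1aDel/+ library for both.

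Scd2 gave the largest difference among the members under vehicle at 16 h. It was 163, 184 and 187 TPM in wt and 39.98, 40.4 and 37.1 TPM in Setd1aDel/+ cells (-2.15 ± 0.075, adjusted p = 3.91e-12). At 6 h it was 34.9, 32.5 and 31.8 and 32.3, 30.7 and 39.3 TPM, which overlapped (0.04 ± 0.1). Among these vehicle groups the Setd1aDel/+ levels of the 2 experiments were close, and the wt level at 16 h stood apart. The IFNB1 experiment had no vehicle group. Its Scd2 levels under LPS, given below, were above the LPS levels of both other experiments in each genotype. LPS lowered Scd2 in wt cells at 16 h more than in Setd1aDel/+ cells, by a difference of 1.45 ± 0.11 (adjusted p = 3.43e-08), 1 of 14 members whose LPS response differed between genotypes at 16 h (33.4% of all genes, 13.1% higher and 20.3% lower). At 6 h 4 of 31 differed in this way (5.6% of all genes, 2.97% higher and 2.63% lower), with 1 higher and 3 lower after scaling against 2 and 2 before. Scaling gave 190 higher and 327 lower of all 8981 genes.

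The exporters did not keep 1 direction across experiments. Abca1 under LPS was 1.3, 1.31 and 1.2 TPM in wt and 6.9, 6.19 and 6.56 TPM in Setd1aDel/+ cells at 16 h (1.73 ± 0.051, adjusted p = 2.21e-13). At 6 h it was 2.43, 2.63 and 2.89 and 1.81, 2.25 and 1.93 TPM (-0.29 ± 0.066, adjusted p = 0.00386), not called with a pseudocount of 0.1 or in a fit of these 2 groups only. In the IFNB1 experiment, with the same LPS dose and time, it was 5.4, 5.1 and 6.7 and 0.7, 1 and 0.9 TPM (-1.85 ± 0.12). Setd1aDel/+ libraries were thus all higher in 1 experiment and all lower in 2. Abcg1 under vehicle was 31.1, 31.2 and 32.1 TPM in wt and 14.7, 13.1 and 15.6 TPM in Setd1aDel/+ cells at 16 h (-1.07 ± 0.065). At 6 h it was 17.2, 17.5 and 15 and 22.6, 24.5 and 24.2 TPM (0.50 ± 0.083), higher in Setd1aDel/+ cells, and the 2 effects differed by -1.57 (adjusted p = 2.84e-13).

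In the LPS groups of the IFNB1 experiment, 16 of 36 tested members were lower and 2 higher in Setd1aDel/+ cells (42.6% of all genes differed, 24.9% lower). The macrophage marker sum was 4778 to 4832 TPM in wt and 8679 to 8823 TPM in Setd1aDel/+ cells there, and its part was not tested. Of its 6 markers, 3 were called higher and 2 lower in Setd1aDel/+ cells. With IFNB1 added, 22 were lower and 4 higher (54.2%, 38.4% lower). Of the 14 lower under LPS that the 16 h experiment also tested, 13 (92.9%) were lower there too. Of all genes lower in the IFNB1 experiment, 69.9% were lower at 16 h. The 13 made up 52.0% of the 25 members lower at 16 h, a share that is not comparable with the 69.9%. Mvd, Nsdhl and Fads2 were lower under LPS in all 3 RAW264.7 experiments, against 4.51% of all genes. Mvd was 17, 16.9 and 17.1 TPM in wt and 11.9, 12.2 and 12.9 TPM in Setd1aDel/+ cells at 16 h, 9.41, 9.7 and 9.32 and 7.5, 6.5 and 6.89 TPM at 6 h, and 26.5, 23.6 and 24.2 and 18.5, 17.2 and 19.5 TPM in the IFNB1 experiment. The genotypes did not overlap in any of the 3, with log2 differences of -0.43, -0.40 and -0.41 (adjusted p = 1.8e-05, 0.00427 and 0.00059).

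**Figure D3:**
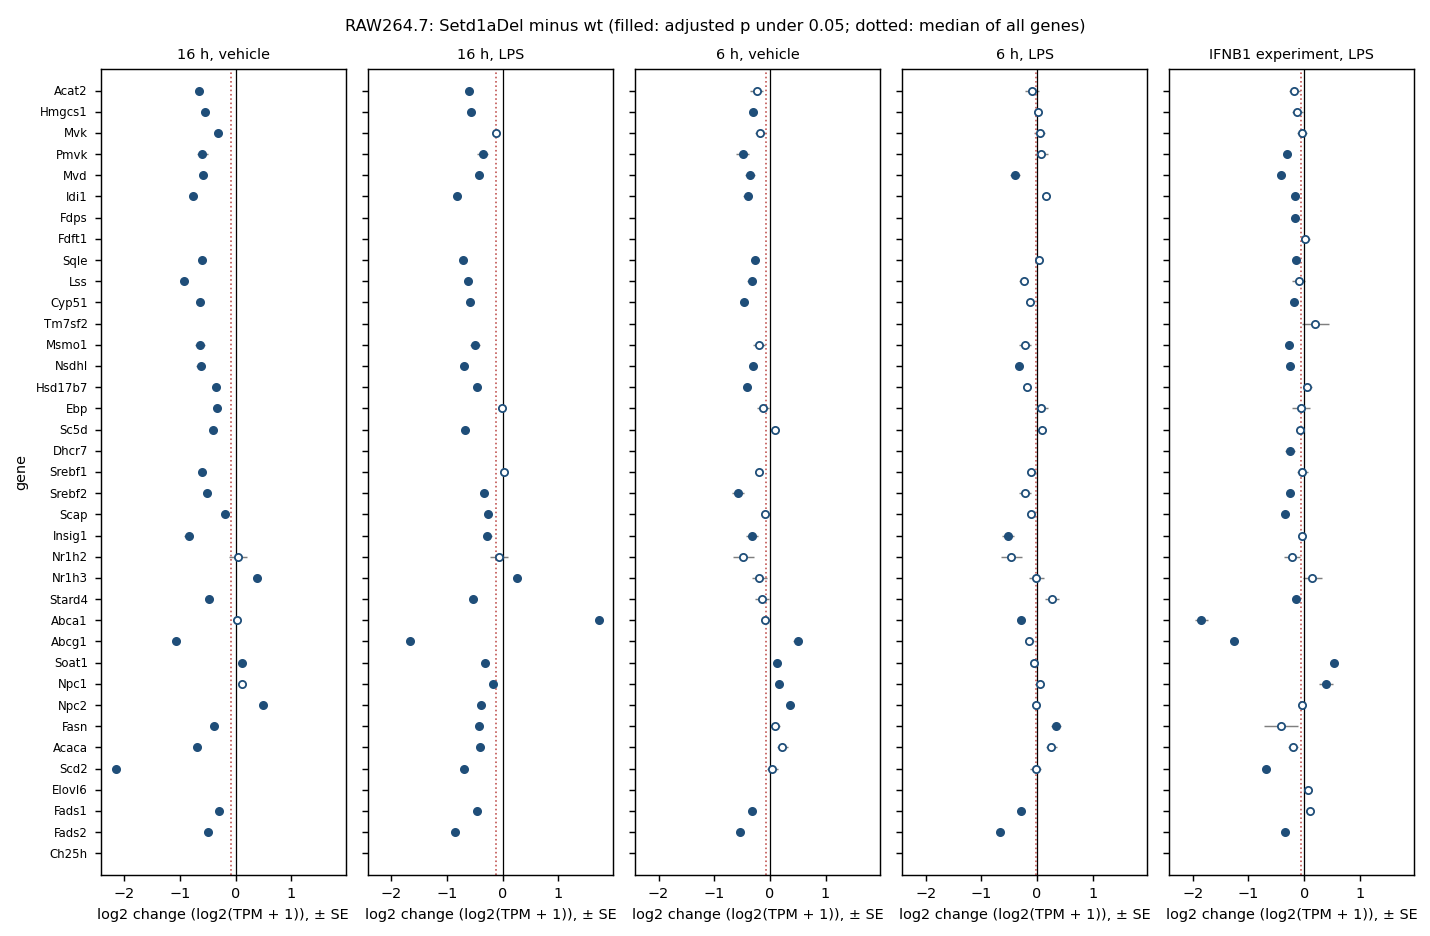
Log2 difference of Setd1aDel/+ minus wt for each member (horizontal axis, log2(TPM + 1), bars are standard errors, 3 libraries a group) in 3 RAW264.7 experiments; filled points passed an adjusted p of 0.05. Points lie mostly left of 0 in the 16 h panels, nearer 0 in the 6 h panels, and Abca1 under LPS lies right of 0 at 16 h and left of 0 in the IFNB1 experiment.

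In marrow-derived cells the sterol enzymes differed little with the Setd1b label, and Nr1h3, which encodes LXR alpha, was lower in all 3 conditions. Under vehicle 3 of 30 members were lower and 1 higher in libraries labelled Setd1bKO (25.3% of all genes, 9.89% higher and 15.4% lower), with 2 and 2 after scaling. Scaling gave 1316 lower and 1016 higher of all 9159 genes. Without control replicate 2 or labelled Setd1bKO replicate 3 of the vehicle groups, 2 members were called. Under LPS 4 were lower and 4 higher (41.4% of all genes, 29% higher and 12.4% lower), and under Dex and LPS 5 were lower and 6 higher (35% of all genes, 23.5% higher and 11.5% lower). None of the 6 mevalonate steps and 8 squalene and sterol steps tested was called (limma) under vehicle or LPS, and Idi1 and Sqle were called lower under Dex and LPS (-0.73 and -0.50).

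Nr1h3 was 25.3, 22.5 and 23.4 TPM in control and 18.7, 18.4 and 17.1 TPM in labelled Setd1bKO cells under vehicle (-0.37 ± 0.06, adjusted p = 0.000236). With LPS it was 35.4, 34.4 and 35.2 and 12.7, 12.9 and 11.8 TPM (-1.42 ± 0.06, adjusted p = 4.56e-11), and with Dex and LPS 49.6, 51.8 and 46.8 and 19.4, 18.1 and 17 TPM (-1.39 ± 0.06). All control libraries lay above all labelled Setd1bKO libraries in each condition. LPS raised Nr1h3 in control cells (0.54) and lowered it in labelled Setd1bKO cells (-0.50, or -0.13 and not called after scaling), a difference of -1.05 ± 0.085 (adjusted p = 5.05e-07). It was 1 of 6 members whose LPS response differed (21.8% of all genes, 16.4% higher and 5.43% lower), with 3 higher and 3 lower, or 1 and 4 after scaling. Scaling gave 783 higher and 938 lower of all 9159 genes. The macrophage marker sum was lower in labelled Setd1bKO cells in each condition, at 16190 to 16400 TPM against 23600 to 25520 TPM under LPS, and its part in this was not tested.

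Abca1, a target of the liver X receptors, was also lower in labelled Setd1bKO cells, at 19, 20.9 and 20.5 TPM in control and 12.5, 16 and 13.6 TPM in labelled Setd1bKO cells under LPS (-0.50 ± 0.14, adjusted p = 0.00817). The groups did not overlap, and the differences under vehicle and under Dex and LPS were -0.41 and -0.49. Each of these 2 calls was lost when any of several single libraries was left out, as low as -0.31 without labelled Setd1bKO vehicle replicate 3 and -0.35 without labelled Setd1bKO Dex and LPS replicate 1. Abcg1, another such target, under vehicle was 102, 98.8 and 100.2 TPM in control and 99.6, 108 and 108 TPM in labelled Setd1bKO cells (0.07 ± 0.075), which overlapped, and under LPS it was lower (difference -0.25, adjusted p = 0.0155), a call lost without any of 3 single libraries (-0.21 to -0.20). Of 6 other genes, partners or targets of these receptors, 2 were higher and 0 lower in labelled Setd1bKO cells in each condition. Among all genes, 9.89%, 29% and 23.5% were higher under vehicle, LPS, and Dex and LPS, and 15.4%, 12.4% and 11.5% lower. After scaling the 6 genes split into 3 higher and 0 lower, 1 and 1, and 1 and 0. Npc1 under LPS was 19.8, 19.6 and 19.9 TPM in control and 25.4, 24.8 and 29.1 TPM in labelled Setd1bKO cells (0.40 ± 0.072, adjusted p = 0.000383), all higher. Ch25h under LPS was lower in labelled Setd1bKO cells (-1.33 ± 0.12, adjusted p = 3.7e-07), from the values given above.

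**Figure D4:**
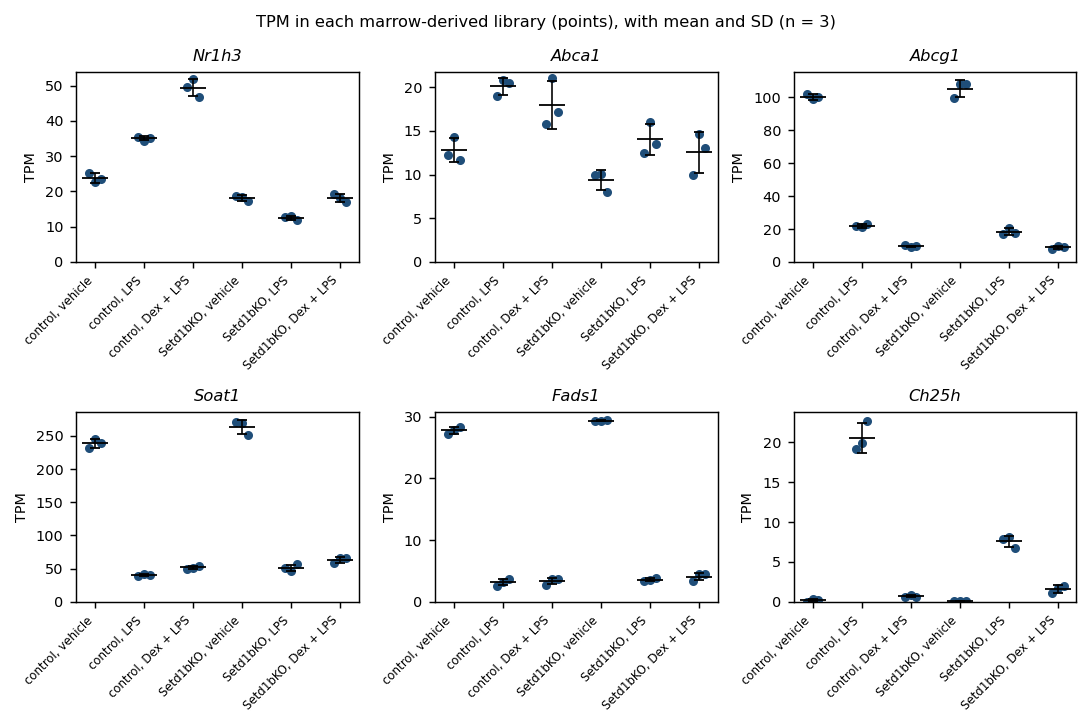
TPM of 6 members in every marrow-derived library (vertical axis; points are libraries, bars the mean and SD of 3) by genotype label and treatment. Nr1h3 is lower in all 3 labelled Setd1bKO groups than in the matching control groups, whereas Abcg1, Soat1 and Fads1 fall with LPS in both.

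IFNB1 added to LPS lowered part of the pathway. In wt cells 12 of 36 members fell and 2 rose, where 33% of all genes changed and 23.5% fell. In Setd1aDel/+ cells 20 fell and 4 rose, against 54.1% changed and 43.6% lower. After scaling the splits were 9 lower and 4 higher, and 11 lower and 8 higher. Of all 10923 genes, 1353 were then lower and 1601 higher in wt cells, and 2165 and 2397 in Setd1aDel/+ cells. Scd2 was 246, 241 and 258 TPM with LPS and 154, 152 and 150.2 TPM with IFNB1 in wt cells (-0.70 ± 0.045, adjusted p = 5.44e-07). In Setd1aDel/+ cells it was 154, 162 and 144 and 60.7, 61.8 and 65.7 TPM (-1.28 ± 0.045). The IFNB1 libraries were all lower, and the fall was larger in Setd1aDel/+ cells (difference -0.57, adjusted p = 0.000271).

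Elovl6, which lengthens palmitate, was 9.8, 10.1 and 10.4 TPM with LPS and 6.8, 6.6 and 5.6 TPM with IFNB1 in wt cells (-0.60 ± 0.07, adjusted p = 8e-05). Dhcr7, which makes cholesterol from its last precursor, was 18.7, 15 and 18.5 and 11.2, 11.1 and 12.2 TPM (-0.55 ± 0.093). Neither gene overlapped between treatments. Hmgcs1, in contrast, was 37, 35.4 and 37.5 TPM with LPS and 39.7, 33.9 and 35.8 TPM with IFNB1 and was not called (-0.01 ± 0.091). Npc2 rose in both genotypes, from 97, 97.4 and 88.8 to 192, 174 and 174 TPM in wt cells (0.93 ± 0.047, adjusted p = 8.36e-08) and by 1.22 ± 0.047 in Setd1aDel/+ cells.

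The IFNB1 response differed between genotypes for 9 of 36 members (11.3% of all genes, 3.31% higher and 8.01% lower), 7 lower and 2 higher, or 5 and 3 after scaling. Scaling gave 329 lower and 621 higher of all 10923 genes. The count of 9 members fell to 4 or 5 when Setd1aDel/+ IFNB1 replicate 2, Setd1aDel/+ LPS replicate 2, wt IFNB1 replicate 2, or wt LPS replicate 1 or 2 was left out. Stard4, a carrier of cholesterol between membranes, was 29.1, 29.8 and 32.6 TPM with LPS and 29.2, 28.7 and 29.2 TPM with IFNB1 in wt cells, and 28.2, 28 and 25.9 and 18.3, 18.2 and 18.9 TPM in Setd1aDel/+ cells. It fell in the latter (-0.54 ± 0.05) and was not called in the former, a difference of -0.48 ± 0.071 (adjusted p = 0.00247). Fasn had replicates that spread widely, at 12.5, 19.7 and 9.2 TPM with LPS and 37.6, 28.1 and 15.2 TPM with IFNB1 in Setd1aDel/+ cells. These groups overlapped. The difference in response between genotypes was 1.55 ± 0.44 (adjusted p = 0.0465) and was not called without the filter on low values or without any of 10 single libraries.

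**Figure D5:**
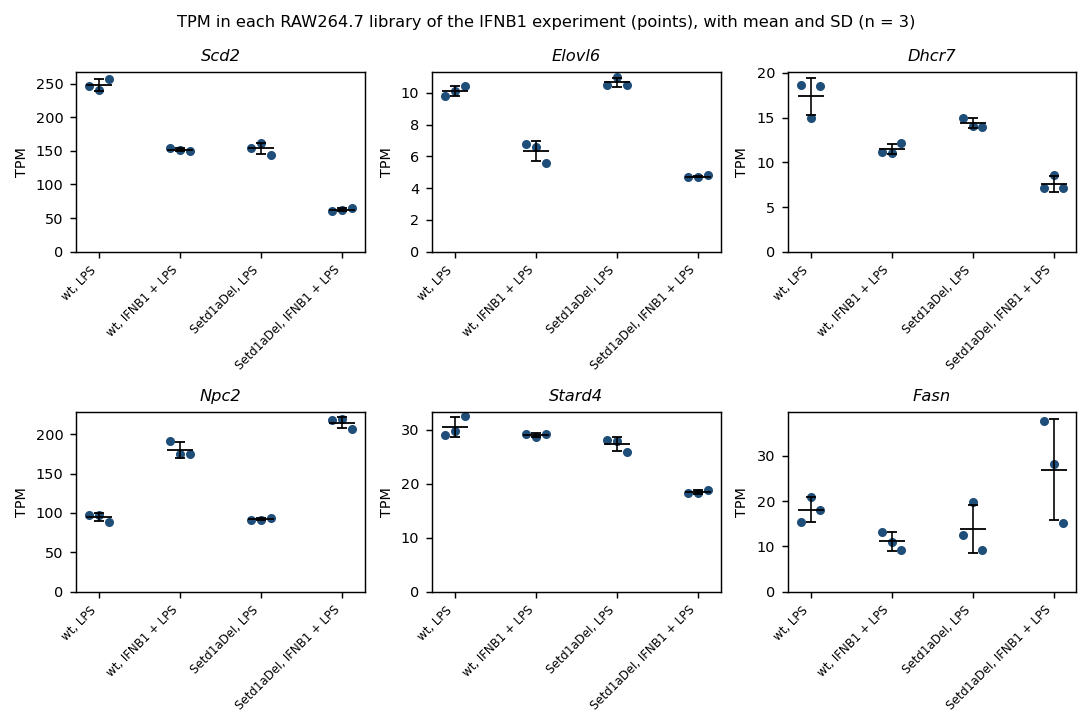
TPM of 6 members in every library of the IFNB1 experiment on RAW264.7 cells (vertical axis; points are libraries, bars the mean and SD of 3). Scd2, Elovl6 and Dhcr7 are lower and Npc2 higher with IFNB1 in both genotypes, and the Fasn libraries of Setd1aDel/+ cells spread from 9.2 to 37.6 TPM.

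Among the members not yet described, Nr1h2 was 105, 112 and 111 TPM in control marrow cells under vehicle, above Nr1h3 in each library, and was called in 3 comparisons, each call lost without any of 4 or more single libraries. The largest of these was the difference in Setd1aDel/+ cells with Dex and LPS at 6 h (-0.53), lost without any of 17 libraries (-0.58 to -0.33). Scap was 13.7, 14.2 and 14 TPM in control and 16.2, 16.7 and 16.1 TPM in labelled Setd1bKO cells under vehicle (0.21 ± 0.049), and in RAW264.7 cells it was lower with Setd1aDel/+ in the 16 h and IFNB1 experiments. Acaca, acetyl-CoA carboxylase, fell with LPS in control marrow cells (-1.12) and was lower in Setd1aDel/+ cells at 16 h under vehicle (-0.70). In the IFNB1 experiment Fdps, which makes farnesyl diphosphate, was 248, 249.6 and 248 TPM in wt and 224, 223 and 216 TPM in Setd1aDel/+ cells with LPS (-0.17 ± 0.031), with no overlap. Fdft1, squalene synthase, was 15.7, 15.7 and 14.1 and 16.9, 15.4 and 14 TPM, which overlapped, and Tm7sf2, a sterol reductase, was near 1 TPM there. Exons of Fdps, Fdft1, Cyp51, Tm7sf2, Srebf1 and Npc1 share bases with another gene in the annotation, so their values may hold reads of both. On GRCm38 the genes Fads1 (chromosome 19, 10182888 to 10196877, plus strand) and Fads2 (chromosome 19, 10062765 to 10101746, minus strand) lie on the chromosome that also holds Scd2 (44293674 to 44306864, plus strand) and Ch25h (34473778 to 34475164, minus strand).

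Other genes of these pathways were read as 3 further lists. Under vehicle at 16 h, 5 of 12 further isoprenoid, sterol and SREBP genes were lower and 3 higher in Setd1aDel/+ cells, 9 of 11 further fatty acid and glycerolipid genes were lower and none higher, and 3 of 5 LXR partners and targets were lower and none higher, against 32.9% of all genes lower and 15.3% higher. Their median differences were -0.21, -0.34 and -0.22, beside -0.51 for the members and -0.08 for all genes. Scd1, the other stearoyl-CoA desaturase listed, was 38.9, 41.6 and 43.2 TPM in wt and 8.75, 10.6 and 8.46 TPM in Setd1aDel/+ cells under vehicle at 16 h (-2.05 ± 0.089), and 8.1, 8.75 and 7.9 and 12, 10.5 and 14.4 TPM at 6 h (0.51 ± 0.1). The 2 genotypes were thus apart in opposite directions in the 2 experiments, and Scd1 and Scd2 are close paralogs whose reads the counting could share. Cyp27a1, which makes 27-hydroxycholesterol, fell with LPS in control marrow cells (-2.63) and in wt RAW264.7 cells at 16 h and 6 h (-1.60 and -1.92). Lipa, the lysosomal lipase that frees cholesterol from its esters, fell with Dex under LPS in wt RAW264.7 cells at 16 h and 6 h (-1.07 and -1.44).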

How the data were processed

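RNA was sequenced from 72 mouse macrophage libraries. The deposited tables hold TPM values that the authors made with Salmon 0.10.2 and R 3.6.0 on GRCm38.p6, per the submitters' processing notes, which also name DESeq2 without a version. The deposited tables also hold the authors' own baseMean signal, log2 fold changes, p-values and, as a score here, the standard error of the fold change; none of these was used. The header of the IFNB1 table does not name its unit, and its values sum as TPM do. Listed TPM summed to 837032 to 909974 in marrow and 894029 to 912839, 902114 to 911851 and 894929 to 905329 in the 16 h, 6 h and IFNB1 experiments. The Dex tables list a part of all genes, depth is unknown, and a share rises in 1 gene as it falls in others. The kit is stranded per the labels' protocols; no source used here says whether counting used strand.

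A gene was tested where 3 or more libraries reached 1 TPM: 30 of 30, 31 of 31 and 36 of 37 listed members passed in the marrow, RAW264.7 Dex and IFNB1 tables, and Ch25h did not in the last. Within each experiment log2(TPM + 1) was fitted with limma 3.58.1 in R 4.3.3, with 1 mean per group and a mean-variance trend, and two-sided p-values were adjusted by Benjamini-Hochberg over all genes tested. The 16 h and 6 h experiments, which share 1 table, were fitted jointly for differences between them. In all, 38 comparisons were planned and 3, of genotype effects between experiments, were added after the data had been seen. Results were recomputed with libraries scaled by the median of ratios, with 0.1 TPM added in place of 1, without the filter, with a replicate block, on the compared groups only, and without each library in turn. All members could be named, and up to 3 called genes of each further list. The fit was tested on simulated data in which 200 genes were changed by 0.5 or 1 on the log2 scale. For LPS in control marrow cells it recovered 74% and 93% of these changes, and 6.18% of calls were false. For the genotype difference in Dex response under LPS at 6 h it recovered 53% and 87%, and 6.04% were false. Small differences between responses may therefore go uncalled. The members and lists were chosen with earlier results of these data known. Replicates correlated at 0.9885 or above and no pair was identical. Gene positions are from GENCODE on GRCm38.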

Additional observations from a re-analysis of the deposited data

Results flagged for a closer look

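Each value here is a difference between 2 responses, or between the genotype effects of 2 experiments, in log2(TPM + 1), that limma called at an adjusted p under 0.05 over all genes tested. In marrow-derived cells the LPS response, labelled Setd1bKO minus control, differed for 6 members. Of these, Ch25h -1.23, Nr1h3 -1.05 and Abcg1 -0.32 were negative and Acat2 0.50, Srebf1 0.39 and Npc1 0.34 positive. Nr1h3 was called in opposite directions in the 2 genotypes, although its fall in labelled Setd1bKO cells was not called after scaling. The Dex response under LPS differed there for 2 members. Here, Ch25h 1.95 and Npc2 0.20 were positive.

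In RAW264.7 cells of the 16 h experiment the LPS response, Setd1aDel/+ minus wt, differed for 14 members. By gene, Npc2 -0.90, Abcg1 -0.60, Soat1 -0.42, Fads2 -0.35, Npc1 -0.29, Sc5d -0.27 and Fads1 -0.17 were negative and Abca1 1.71, Scd2 1.45, Srebf1 0.64, Insig1 0.56, Ebp 0.32, Acaca 0.31 and Lss 0.29 positive. The Dex response under LPS differed for 7 members in that experiment. Among these, Abca1 -0.78, Msmo1 -0.52, Fads2 -0.50, Npc2 -0.33, Cyp51 -0.29, Nr1h3 -0.29 and Fads1 -0.25 were negative. Abca1 was scarce in wt cells of that experiment, so the added 1 TPM understates its changes there. The part of this in its differences between genotypes was not tested. In the 6 h experiment the LPS response differed for 4 members. In this set, Abcg1 -0.64 and Npc2 -0.38 were negative and Idi1 0.56 and Hmgcs1 0.31 positive. The Dex response under LPS differed for 6 members at 6 h. For this response, Npc2 -0.28 was negative and Scd2 0.80, Msmo1 0.78, Insig1 0.68, Acat2 0.60 and Soat1 0.28 positive. Msmo1 was called in opposite directions in the 2 genotypes, calls lost without any of 3 single libraries in Setd1aDel/+ cells and 2 in wt cells. The IFNB1 response differed between genotypes for 9 members. For the interferon response, Acaca -0.63, Scd2 -0.57, Hsd17b7 -0.51, Stard4 -0.48, Elovl6 -0.42, Insig1 -0.22 and Sqle -0.20 were negative and Fasn 1.55 and Npc2 0.29 positive.

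Between the 2 Dex experiments, where length of treatment and experiment cannot be told apart, the Dex response under LPS, 16 h minus 6 h, differed for 12 members in wt cells. For wt, Pmvk -0.69, Stard4 -0.65, Scd2 -0.51, Idi1 -0.46, Fads2 -0.38, Mvd -0.36, Lss -0.34, Nsdhl -0.33, Npc2 -0.30 and Sqle -0.28 were negative and Abca1 0.67 and Nr1h3 0.51 positive. In Setd1aDel/+ cells 20 members differed. With the deletion, Scd2 -1.37, Msmo1 -1.29, Fads2 -0.91, Acat2 -0.89, Stard4 -0.77, Cyp51 -0.74, Insig1 -0.68, Mvd -0.65, Idi1 -0.65, Lss -0.64, Sqle -0.62, Pmvk -0.61, Hsd17b7 -0.57, Fads1 -0.47, Nsdhl -0.46, Hmgcs1 -0.45, Sc5d -0.39, Npc2 -0.34, Soat1 -0.30 and Abca1 -0.24 were negative. Opposite directions were called for Scd2 in wt cells and for Acat2, Mvd, Sqle, Lss, Msmo1, Hsd17b7 and Scd2 in Setd1aDel/+ cells. The wt calls of Scd2 were lost without any of 16 single libraries at 6 h and 4 at 16 h. In Setd1aDel/+ cells the 6 h calls were lost without any of 4 for Lss and 3 for Msmo1, and the 16 h call without any of 3 for Mvd. The genotype effect, Setd1aDel/+ minus wt, was compared between the same experiments after the data had been seen. Under vehicle it differed for 15 members. Without LPS, Scd2 -2.19, Abcg1 -1.57, Acaca -0.93, Lss -0.59, Insig1 -0.52, Sc5d -0.50, Fasn -0.50, Msmo1 -0.44, Srebf1 -0.42, Acat2 -0.42, Idi1 -0.36, Sqle -0.34, Nsdhl -0.32 and Hmgcs1 -0.24 were negative and Nr1h3 0.57 positive. Under LPS it differed for 21 members. In the LPS groups, Abcg1 -1.53, Idi1 -0.99, Stard4 -0.80, Sc5d -0.77, Fasn -0.77, Sqle -0.76, Scd2 -0.68, Acaca -0.66, Hmgcs1 -0.58, Acat2 -0.50, Cyp51 -0.45, Pmvk -0.44, Lss -0.39, Npc2 -0.39, Nsdhl -0.37, Hsd17b7 -0.29, Soat1 -0.27, Npc1 -0.24, Fads2 -0.18 and Fads1 -0.17 were negative and Abca1 2.02 positive. With Dex and LPS it differed for 24 members. In the Dex and LPS groups, Msmo1 -1.59, Scd2 -1.55, Abcg1 -1.24, Idi1 -1.19, Acat2 -1.19, Sqle -1.09, Cyp51 -1.04, Sc5d -1.01, Stard4 -0.92, Hmgcs1 -0.80, Fads2 -0.72, Lss -0.69, Fasn -0.64, Hsd17b7 -0.62, Insig1 -0.59, Acaca -0.58, Nsdhl -0.50, Fads1 -0.50, Soat1 -0.47, Npc2 -0.44, Ebp -0.34, Mvd -0.33 and Scap -0.22 were negative and Abca1 1.10 positive. The directions called were opposite for Abcg1 under vehicle, Abca1 and Fasn under LPS, and Acat2, Hmgcs1, Sqle, Msmo1, Sc5d, Soat1 and Scd2 with Dex and LPS. The 6 h calls were lost without any of 19 single libraries for Sc5d, 3 for Hmgcs1 and 1 for Fasn. That of Abca1 was not called with a pseudocount of 0.1.

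Of these 140 differences, 29 were no longer called when 1 library was left out, and the number of single libraries with that effect was counted. For the marrow LPS response, the number was 12 for Abcg1 and 4 for Npc1. For the marrow Dex response, the number was 6 for Npc2. For the LPS response at 16 h, the number was 13 for Sc5d, 4 for Acaca and 1 for Fads1. For the Dex response at 16 h, the number was 7 for Cyp51 and 12 for Nr1h3. For the LPS response at 6 h, the number was 14 for Hmgcs1. For the Dex response at 6 h, the number was 20 for Acat2. For the IFNB1 response, the number was 7 for Sqle, 2 for Hsd17b7, 5 for Npc2, 10 for Fasn, 1 for Acaca and 6 for Elovl6. For the 16 h minus 6 h Dex response in wt cells, the number was 8 for Mvd, 2 for Sqle and 4 for Lss. For the same in Setd1aDel/+ cells, the number was 6 for Abca1. For the genotype effect between experiments under vehicle, the number was 9 for Acat2, 6 for Hmgcs1, 1 for Idi1 and 5 for Msmo1. For that effect under LPS, the number was 5 for Pmvk, 2 for Fads1 and 5 for Fads2. For that effect under Dex and LPS, the number was 3 for Mvd and 8 for Ebp. The Abca1 difference of -0.24 between 16 h and 6 h in Setd1aDel/+ cells also turned to 0.74 with a pseudocount of 0.1.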

How the results depend on the processing

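Of 1111 recomputed counts of called members, over 41 comparisons, 1091 stayed within 1.5 times the reported count and 20 did not. Fitting only the compared groups gave 7 calls for Dex under LPS in labelled Setd1bKO cells, 7 for Dex alone in Setd1aDel/+ cells, 7 for genotype under Dex alone, 6 for genotype under Dex and LPS at 6 h, and 1 for the marrow difference in Dex response; scaling also gave 1 there. Leaving out 1 library gave 1 to 2 for that difference (1 without control Dex and LPS replicate 2 or 3, control LPS replicate 2 or 3, or labelled Setd1bKO LPS replicate 1 or 3), 2 to 5 for genotype in marrow under vehicle, 8 to 13 for genotype with Dex and LPS at 6 h, and 4 to 10 for the genotype difference in IFNB1 response. Scaling by the median of ratios divides out most of the shift of all genes with LPS, and 36 gene values turned sign, not all of them called after scaling. For Dex under LPS in labelled Setd1bKO cells scaling gave Scap 0.00. For LPS in labelled Setd1bKO cells scaling gave Npc2 0.14, Sc5d 0.04, Scap 0.32 and Srebf1 0.29. For LPS in control marrow cells scaling gave Npc2 0.38, Nr1h2 0.51, Sc5d 0.15, Scap 0.43, Sqle 0.10 and Srebf1 0.03. For LPS at 16 h in Setd1aDel/+ cells scaling gave Acaca 0.30, Fasn 0.15, Npc2 0.41, Nr1h2 0.04, Nsdhl 0.23, Pmvk 0.14, Sc5d 0.19, Sqle 0.00, Srebf1 0.07, Srebf2 0.42 and Stard4 0.31. For LPS at 16 h in wt cells scaling gave Fasn 0.15, Nsdhl 0.29, Sqle 0.09, Srebf2 0.23 and Stard4 0.33. For LPS at 6 h in Setd1aDel/+ cells scaling gave Soat1 0.19. For LPS at 6 h in wt cells scaling gave Npc1 0.14, Nsdhl 0.02 and Sqle 0.01. For IFNB1 in Setd1aDel/+ cells scaling gave Fdps 0.06, Insig1 0.03, Msmo1 0.14, Sc5d 0.15 and Srebf2 0.14. With a pseudocount of 0.1, the difference in Dex response of Abca1 between 16 h and 6 h in Setd1aDel/+ cells turned to 0.74; the cause was not tested. Among the other gene values, calls were lost in 530 cases and gained in 141 on leaving out a library, 70 and 46 on scaling, 59 and 18 with only the compared groups, 9 and 4 with the lower pseudocount, 11 and 2 with the replicate block, and 5 and 0 without the filter.

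Replicate numbers did not pair the samples: deviations of same-numbered libraries had median correlations of 0.001, -0.016, 0.01 and -0.009 in the marrow, 16 h, 6 h and IFNB1 experiments, and 4 of 45, 4 of 45, 4 of 84 and 1 of 18 pairs exceeded 0.1. With the replicate block all 41 counts stayed within 1.5 times, for example 10 against 13 for genotype with Dex and LPS at 6 h, 16 against 18 for genotype under LPS in the IFNB1 experiment, and 11 against 13 for Dex alone in wt cells. Depth is unknown in TPM, so no counting error could be given for low genes such as Abca1 in RAW264.7 cells and Ch25h.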
